A study of Mus musculus with 22 samples.

Results

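Rapamycin-treated control animals were compared with control animals without rapamycin in the mRNAs bound to ribosomes of cerebellar Purkinje cells (PCs). The comparison used 6 of the 22 libraries of the series, 3 with and 3 without the drug. All 6 came from C57BL/6 mice of the genotype labelled WW, read here as *Tsc1*+/+ with L7Cre and Rosa26fsTRAP. In these animals Cre, driven by the L7 (Pcp2) promoter, switches on a GFP-tagged ribosomal protein (RPL10A-EGFP) from the Rosa26 locus. Translating ribosome affinity purification (TRAP) then pulls the tagged ribosomes out of whole cerebellum with antibodies to GFP, and one library was made per animal. Another 3 treated and 3 untreated libraries of genotype CC, read as *Tsc1*fl/fl with the same alleles, were used only for the comparison with mutants. The labels give no dose, route, schedule or age, and they state no vehicle for the untreated animals. The deposited value of each locus is an estimated fragment count scaled by one size factor per library, and levels are given as log2(value + 1) throughout. Of 66494 loci, 8682 reached a mean level of 2 over the 6 libraries and were tested. A locus was named only where the study's supplementary gene tables pair it with a symbol and the assembled transcript matches that gene or shares a splice junction with it, which left 864 named loci among those tested.

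Rapamycin binds the immunophilin FKBP12, the product of *Fkbp1a*, and this complex inhibits mTOR complex 1. The complex promotes ribosome production and the translation of mRNAs that begin with a 5′ terminal oligopyrimidine (TOP) tract, which include those of ribosomal proteins and elongation factors, and it restrains autophagy. PCs are the inhibitory output neurons of the cerebellar cortex, and they express large amounts of calcium-handling and metabotropic glutamate signalling proteins. TRAP records how much of an mRNA is on tagged ribosomes and does not separate a change in the amount of mRNA from a change in its loading, or fewer tagged cells from less RNA per cell.

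The treated libraries held 4.28 to 4.89 M fragments and the untreated ones 4.90 to 6.38 M. This was estimated by taking the commonest low positive value of each library as 1 fragment. Among the 8682 loci, 26.4%, 13.1% and 9.10% were listed at 0 in treated libraries 1, 2 and 3, against 0.921% to 3.59% in the untreated libraries. The 10 highest loci took 72.6% of treated library 1 and 58.3% to 62.7% of the other 5. Across loci, the correlation between 2 treated libraries was 0.43 to 0.54 and between 2 untreated libraries 0.71 to 0.82, while pairs with one of each gave 0.49 to 0.71. Treated library 1 therefore stood apart, and the treated animals differed more from each other than the untreated ones did. Widely expressed genes such as *Psma3*, a core subunit of the proteasome, were also at 0 in treated library 1. Whether a locus listed at 0 is a failed estimate or an absent mRNA was not tested. The labels put all 12 TRAP libraries in one submission, so no batch could be compared within them.

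Rapamycin was followed by more decreases than increases. The study's thresholds, p below 0.01 before adjustment and more than a 2-fold change, were met by 91 of the 8682 loci (1.05%) in limma. Of these, 74 were lower (0.852% of the loci tested) and 17 were higher (0.196%). After Benjamini-Hochberg adjustment of the limma p-values 0 loci stayed below 0.05, and the smallest value was 0.176. Before adjustment 460 loci (5.3%) were below 0.05. By limma-voom on the estimated fragments, an alternative added after the data were seen, 0 loci were below 0.05 after adjustment as well, and 474 were before it. Leaving out untreated library 1, 2 or 3 gave 31, 43 and 29 loci past the thresholds, of which 35.5%, 41.9% and 37.9% were lower, so that the direction of the majority turned. Without treated library 1, 2 or 3 there were 243, 299 and 434, and 87.7% to 93.6% of them were lower. After quantile normalization 68.7% of 99 loci were lower, against 81.3% in the deposited values.

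The median log2 difference over all 8682 loci was -0.31, and 62.1% of loci were below 0. This shift lay among the loci with low levels. The median was -0.86 for loci with a mean level of 2 to 3, -0.73 from 3 to 4 and -0.20 from 4 to 5. It lay between -0.06 and 0.07 in each class of higher level with at least 20 loci. With only loci of a mean of 5 or more, the thresholds were met by 12 loci, 41.7% of them lower. When each treated library was set against the mean of the untreated ones, the median differences were -0.21, -0.03 and 0.03. The median without treated library 1 was -0.17.

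**Figure D1:**
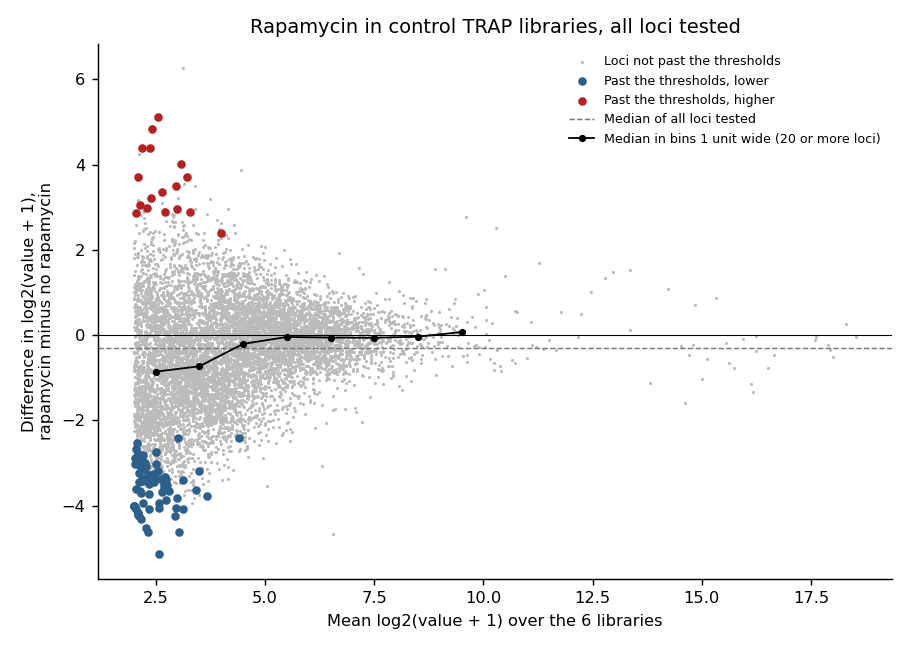
Difference in log2(value + 1), rapamycin minus no rapamycin (y axis), against the mean log2(value + 1) over the 6 control TRAP libraries (x axis) for the 8682 loci tested. Blue and red points are the 74 lower and 17 higher loci past the thresholds, the dashed line is the overall median of -0.31, and the black line of medians by level is below 0 at low levels and near 0 from a level of 5 upward.

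All 3 treated libraries were below all 3 untreated libraries at 105 of the 864 named loci, and above them at 55. Over all loci tested, the same pattern was found for 7.18% in the lower direction and 4.58% in the higher direction, against 12.2% and 6.37% of the named loci. The median difference of the named loci was -0.36. Among the 105 lower loci the differences ran from -4.17 to -0.28, and 36 of them were listed at 0 in at least 1 treated library. Among the 55 higher loci they ran from 0.20 to 3.86, and 4 were listed at 0 in at least 1 untreated library. Only through their untreated libraries did 21 of the lower loci reach a mean of 2, and 5 of the higher ones reached it only through their treated libraries, so for these a difference was a condition of being tested. Most names come from gene tables that the study chose on TRAP values that include these untreated libraries. Of the 56 named loci that come only from other tables, 9 (16.1%) were lower and 3 (5.36%) were higher in all treated libraries.

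Past the thresholds were 10 named loci, 1.16% of those tested against 1.05% of all loci, so the named loci were near the background share. Apart from *Pptc7*, which reached the mean of 2 in both groups, the 6 others that were lower reached it only without rapamycin and the 3 that were higher only with it, so that for these 9 a difference was a condition of being tested. The 7 that fell included genes for a mitochondrial protease and a mitochondrial phosphatase, 2 proteins of the ubiquitin pathway and a receptor. *Pitrm1*, on chromosome 13 of GRCm38 from 6548149 to 6580515, encodes a mitochondrial protease that degrades cleaved presequences. It was listed at 0 in all 3 treated libraries, while the untreated libraries were at 4.53, 4.26 and 3.73 (limma adjusted p = 0.176), which correspond to about 26, 29 and 22 fragments. *Khdc3* (chromosome 9, 73101836 to 73104438), known from the oocyte and early embryo, was also at 0 in all 3 treated libraries and at 4.42, 3.89 and 3.95 in the untreated ones (adjusted p = 0.176).

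*Lgr4*, a receptor for R-spondins that strengthens Wnt signalling (chromosome 2, 109917647 to 110014257), was at 0, 0 and 2.96 in treated libraries 1, 2 and 3, and at 4.42, 4.44 and 5.03 in the untreated libraries. *Ankib1*, a likely ubiquitin ligase, was at 0, 2.85 and 2.84 with rapamycin, and at 5.33, 4.84 and 5.10 without it. *Usp40*, a ubiquitin-specific protease, was at 0, 2.18 and 0 with the drug and at 3.87, 2.98 and 4.19 without it. All 3 had at least 1 treated library at 0. Their log2 differences were -3.65 (standard error 0.93), -3.20 (0.89) and -2.95 (0.80), each with an adjusted limma p of 0.843 or 0.85. The noncoding RNA *Tmem74bos*, antisense to its neighbour, had values of 0, 0 and 2.03 in the treated and 3.25, 3.29 and 4.98 in the untreated libraries. Since the counting is not stated to use strand, its reads cannot be told from those of *Tmem74b*.

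*Pptc7*, a protein phosphatase of mitochondria (chromosome 5, 122284365 to 122324281), was the only one of the 7 that was above 0 in every library. Its level was 4.19, 2.85 and 2.57 with rapamycin (mean 3.20 ± 0.87, SD, n = 3) and 5.82, 5.68 and 5.31 without it (5.60 ± 0.26, SD, n = 3). The log2 difference was -2.40 (standard error 0.65, limma adjusted p = 0.85), and the lowest untreated library lay above the highest treated one. With any library other than treated library 1 left out, *Pptc7* no longer met the p threshold, with differences of -2.55 to -2.09.

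The named loci that rose were *Zfp704*, *Ctsz* and *Erbb4*. *Zfp704*, a zinc finger protein gene (chromosome 3, 9427020 to 9610085), was at 4.69, 5.67 and 4.87 with rapamycin and at 0, 3.48 and 0.64 without it, a log2 difference of 3.71 (standard error 0.99, limma adjusted p = 0.85). *Ctsz*, which encodes the lysosomal protease cathepsin Z (chromosome 2, 174427493 to 174439039), was at 4.58, 4.35 and 2.41 in the treated and 0.89, 1.53 and 0 in the untreated libraries, and differed by 2.98 (standard error 0.81). *Erbb4*, a receptor tyrosine kinase for neuregulins (chromosome 1, 68032186 to 69108059), was at 3.75, 3.01 and 3.67 with the drug, at 1.81 in untreated library 2, and at 0 in the other 2 untreated libraries. All 3 therefore had levels that rest on few fragments in the untreated group, at most 16.1 for *Zfp704* and 4 for the others. *Ctsz* is also known as a gene of microglia. None of 18 microglial and macrophage markers reached the filter, but their summed deposited value was 24.9, 34.5 and 59.1 in the treated libraries and 5.11, 11.9 and 0.557 in the untreated ones, with 14 to 16 and 11 to 17 of the 18 at 0. The part of these cells in the *Ctsz* values was not tested. The 8 loci other than *Pitrm1* and *Khdc3* were past the thresholds in only 5 to 10 of 12 to 17 alternatives.

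**Figure D2:**
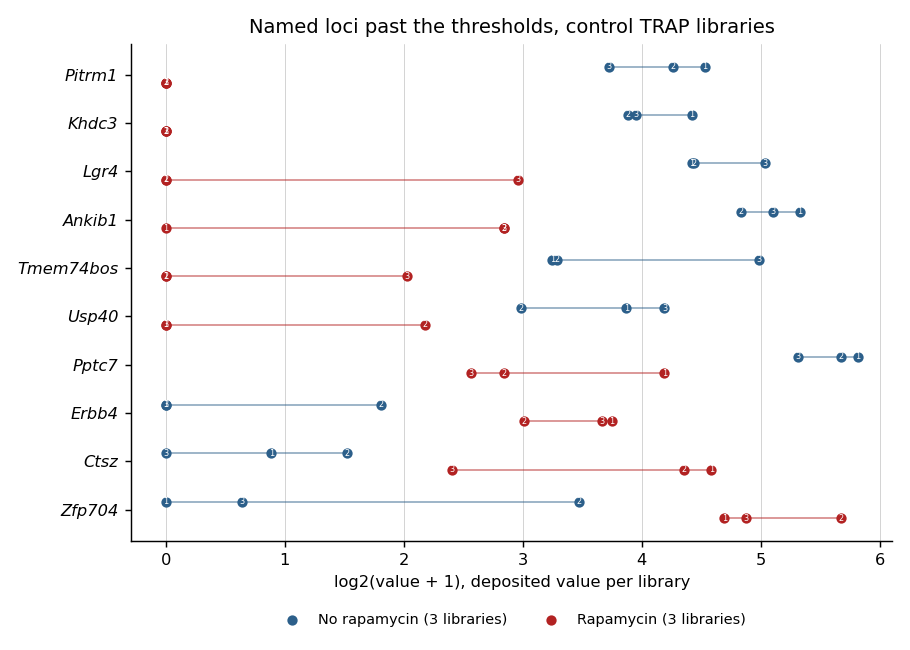
Log2(value + 1) (x axis) of the 10 named loci past the thresholds in each of the 3 treated (red) and 3 untreated (blue) control TRAP libraries, with the replicate number inside the point and a line over the range. The groups do not overlap at any locus, *Pitrm1* and *Khdc3* are at 0 in all treated libraries, and *Pptc7* is the only decrease with no library at 0.

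No measured gene of the rapamycin target and mTOR signalling list met the thresholds. Of 19 genes on the list, 14 were measured. Treated libraries were all lower at 3 of them (21.4%, against 7.18% of all loci and 12.2% of the named loci). They were all higher at none (against 4.58% and 6.37%). The median level of the list was 4.67 to 5.62 in the 6 libraries. The list median difference was -0.18, against -0.31 for all loci. It was -0.20 for all loci with a mean level of 4 to 5 and -0.04 from 5 to 6. *Fkbp1a* was at 7.76, 7.92 and 7.92 with rapamycin and at 8.34, 8.02 and 8.61 without it. The treated values were thus all lower, untreated library 2 being only slightly above them. The difference of -0.45 (limma adjusted p = 0.893) was smaller than its limma standard error of 0.52, which pools the spread over all loci tested. The SDs of *Fkbp1a* were 0.09 with and 0.29 without rapamycin. *Mknk1*, a kinase that phosphorylates the cap-binding protein eIF4E, was at 0, 3.16 and 3.59 against 3.78, 3.83 and 3.73. The locus of *Depdc5*, part of the GATOR1 complex that inhibits mTORC1 when amino acids are scarce, was at 10.04, 10.37 and 9.99 against 10.37, 10.51 and 10.57. It only overlaps exons of that gene, as does the locus of *Foxo3*, so both assignments are uncertain.

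The other 11 members had overlapping groups. *Ddit4*, which encodes the mTORC1 inhibitor REDD1, had the largest positive difference, 1.20 (standard error 0.85), with 4.69, 3.74 and 4.99 in the treated and 4.30, 3.83 and 1.69 in the untreated libraries. The transcription factor gene *Foxo3* differed by 0.78 and *Pdpk1*, the kinase that activates AKT and S6 kinase, by 0.65. Differences near 0 were found for *Larp1*, a repressor of TOP mRNAs (0.06), and *Ppp2ca*, the catalytic subunit of protein phosphatase 2A (-0.09). The AMP-activated kinase subunits *Prkab2* (-1.21) and *Prkag2* (-0.16), the kinase subunit gene *Pik3cb* (-0.21) and the adaptors *Grb2* (-0.46) and *Grb14* (-0.49) were below 0. For *Prkab2*, *Pik3cb* and *Grb14* this came with treated library 2 at 0. The sign of 6 of these 11 differences, those of *Larp1*, *Ppp2ca*, *Prkab2*, *Prkag2*, *Pik3cb* and *Grb14*, turned in at least 1 alternative.

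The translation machinery list had the highest median of the lists with at least 5 measured genes. The median difference of 12 measured members was 0.31 and without treated library 1 it was 0.45, and 8 of the 12 were above 0. The median level of the list was 6.06, 5.92 and 5.50 in treated libraries 1, 2 and 3 and 5.10, 5.04 and 4.97 in the untreated ones, whereas the median over all loci was 4.44 to 4.51 in every library. None of the 12 was past the thresholds. Treated libraries were all higher at 2 members (16.7%) and all lower at 1 (8.33%), against 6.37% and 12.2% of the named loci. *Pabpc1*, the cytoplasmic poly(A)-binding protein gene (chromosome 15, 36595661 to 36609668), was at 6.65, 6.20 and 4.28 against 3.87, 4.26 and 4.23, a difference of 1.59 (standard error 0.76, limma adjusted p = 0.85). Treated library 3 was barely above the untreated libraries. *Npm1*, the nucleolar chaperone nucleophosmin (chromosome 11, 33152287 to 33163206), was at 6.00, 5.47 and 5.54 against 3.59, 4.90 and 4.70, a difference of 1.27 (standard error 0.61). Treated libraries were all lower only at *Rrbp1*, a ribosome-binding protein of the endoplasmic reticulum, with 3.94, 0.91 and 0 against 4.68, 3.95 and 4.57.

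The ribosomal protein genes measured on this list, *Rps16*, *Rplp0*, *Rpl37* and *Rpl5*, had no common direction. Only genes in the study's supplementary gene tables could be named, so these do not stand for ribosomal protein genes as a class. *Rps16* was at 3.94, 4.74 and 6.05 against 4.78, 3.83 and 4.23 (difference 0.63). *Rplp0* was at 6.89, 2.66 and 4.61 against 5.42, 5.17 and 4.90 (difference -0.45), and *Rpl37* at 5.30, 6.13 and 4.41 against 5.84, 5.75 and 5.56 (difference -0.44). The treated libraries lay on both sides of the untreated ones at *Rplp0* and *Rpl37*, and overlapped with them at *Rps16*. The *Rpl5* locus, with an uncertain assignment, differed by 0.44 with treated library 1 at 6.36 and the others at 8.67 and 9.06. The signs of *Rplp0*, *Rpl5*, *Eef1a2* and *Paip2b* turned in at least 1 alternative. The elongation factor *Eef1a2* differed by 0.18, the tyrosyl-tRNA synthetase *Yars* by 0.64, the release factor *Gspt1* by 0.71, and *Paip2b*, which inhibits poly(A)-binding protein, by -1.12 with treated library 1 at 0.

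TOP mRNAs are defined by their first bases, and 2 of the 12 reference transcripts that name these loci begin with a C followed by at least 4 pyrimidines, as do 2.14% of 58797 protein-coding transcripts in the GENCODE annotation of GRCm38. They are *Pabpc1* and *Rpl37*, shown with 4 genes of the list for comparison. Each line gives the first 30 bases, 5′ to 3′ on the transcribed strand, with the unbroken run of pyrimidines at the start in capitals.
Pabpc1: CCCCTTCTCCCCggcggttagtgctgagag
Rpl37: CTCTTCCggtctctttggcctcgccggtag
Eef1a2: TTCTCgctcactggttctctccctcgctcc
Rplp0: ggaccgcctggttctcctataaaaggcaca
Rps16: ggcttcgacgtcagccgtaaagcccgcttc
Npm1: ggcgcacgcgcaaaagcgcgactgtgcggg
*Pabpc1*, with a run of 12 pyrimidines, was higher in all treated libraries, and *Rpl37*, with a run of 7, was not. An annotated start need not be the capped base, so the absence of a run says only that these letters are not at the annotated start.

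**Figure D3:**
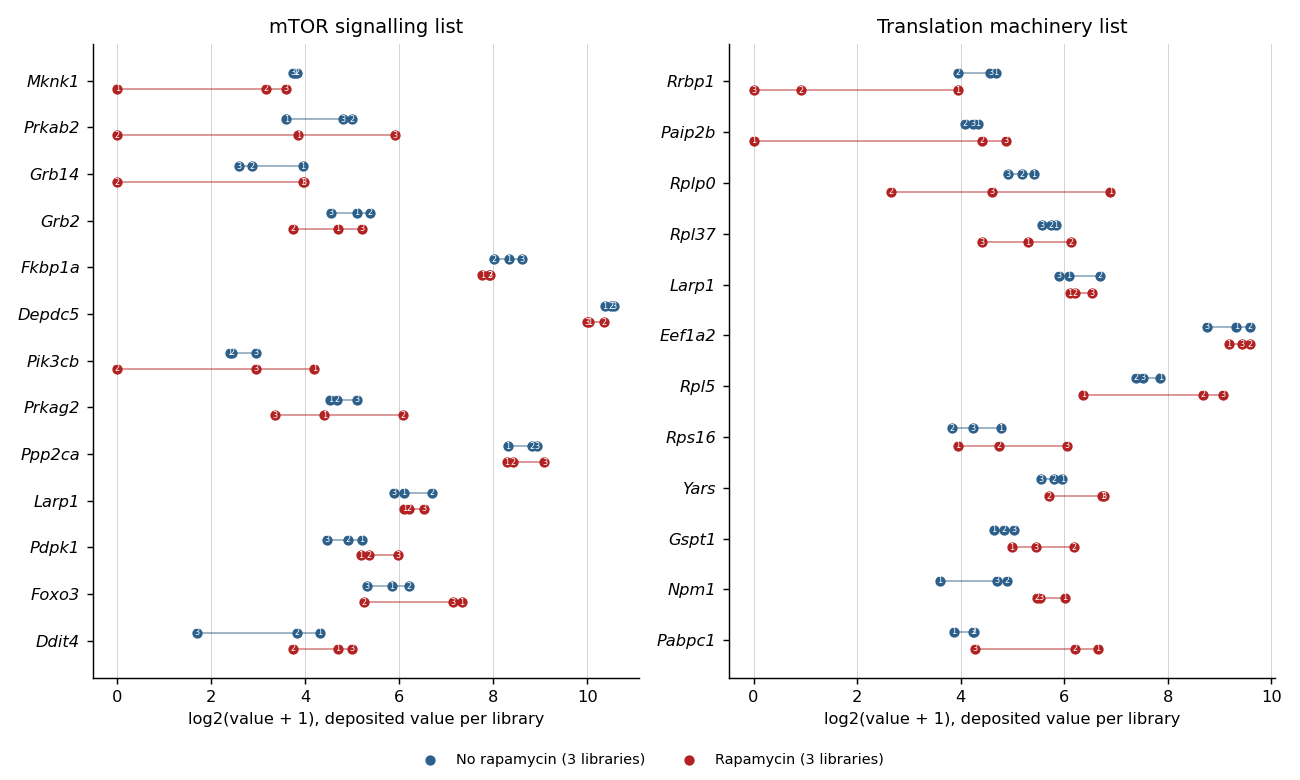
Log2(value + 1) (x axis) of 13 of the 14 measured genes of the mTOR signalling list (left) and the 12 of the translation machinery list (right) in the 3 treated (red) and 3 untreated (blue) control TRAP libraries, ordered by their difference, with lines over the range. Separate groups are seen at *Mknk1*, *Fkbp1a* and *Depdc5* (lower), *Rrbp1* (lower), and *Npm1* and *Pabpc1* (higher).

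RNA exosome genes differed in both directions, and none met the thresholds. Of 18 measured genes of the RNA exosome and its cofactors, the complex that degrades RNA from its 3′ end, 3 were lower (16.7%) and 2 were higher (11.1%) in all treated libraries, against 7.18% and 4.58% of all loci. Among the named loci these shares were 12.2% and 6.37%. The list median was -0.66, but 9 of the 18 were listed at 0 in treated library 1, and without that library the median was 0.01. The core subunit gene *Exosc9* was at 0, 0 and 2.84 against 3.11, 4.84 and 3.60, and *Wdr61*, a member of the SKI and PAF1 complexes, at 0.97, 2.66 and 2.41 against 3.95, 4.21 and 3.04 (difference -1.72, standard error 0.70). *Zcchc8*, a subunit of the nuclear exosome targeting complex, was at 4.85, 4.64 and 4.41 against 1.83, 3.89 and 2.94, a difference of 1.75 (standard error 0.69), and *Zfc3h1*, a cofactor of the nuclear exosome, at 5.26, 4.87 and 4.68 against 4.58, 2.73 and 3.60. Both nuclear cofactors were thus higher in each treated library. The other members, apart from the catalytic subunit *Exosc10* (difference -0.66), had overlapping groups. For 9 measured ribosome biogenesis genes the median was -0.43, with no gene lower or higher in all treated libraries and 4 genes at 0 in treated library 1.

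The 26 measured loci of 5S ribosomal RNA, whose copies are nearly identical so that single loci are uncertain, differed by -1.12 to 0.35, and none separated the groups. Their median level was 5.80, 7.27 and 6.53 in the treated libraries and 6.97, 6.22 and 6.65 in the untreated ones. Treated library 1 was the lowest of the 6 and treated library 2 the highest. Several other short noncoding RNAs were also low in treated library 1, and 4 of the 13 measured were at 0 there. The Y RNA *Rny3* was at 7.34 in treated library 1 and at 12.55 and 12.33 in the others, against 10.03 to 12.10 without rapamycin. The list median was -0.14 with and 1.16 without treated library 1. A single member of 13 (7.69%) was higher in all treated libraries, against 4.58% of all loci and 6.37% of the named loci. It was *Mir3068*, the locus of a microRNA hairpin on chromosome 12 from 87437679 to 87437757. Its level was 5.64, 6.33 and 6.53 against 5.23, 4.31 and 5.06, a difference of 1.30 (standard error 0.59). Its 2 mature products are given by RefSeq for GRCm38.p6 as follows, with the seed, bases 2 to 8, in capitals.
mmu-miR-3068-5p: uUGGAGUUcaugcaaguucuaacc
mmu-miR-3068-3p: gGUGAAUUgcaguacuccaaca
The 2 seeds differ, and the library does not show which arm, if either, the reads came from.

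With all 6 libraries, mitochondrial genes had the lowest median of the lists with at least 5 measured genes. It was -0.76 for 29 measured genes, of which 9 (31%) were lower and 3 (10.3%) higher in all treated libraries, beside 7.18% and 4.58% of all loci. Among the named loci these shares were 12.2% and 6.37%. Of the 29, only *Pitrm1* was past the thresholds. The mitochondrial phosphatase gene *Pptc7*, also past them, was not on this list. *Gcsh*, a carrier protein of the glycine cleavage system, was at 0, 0.91 and 2.84 against 3.95, 3.89 and 3.95, a difference of -2.68 (standard error 0.82), and *Mccc1*, a subunit of methylcrotonyl-CoA carboxylase, was at 3.11, 0 and 0.69 against 4.17, 3.69 and 3.84 (-2.63, standard error 0.89). The untreated libraries lay close together at both genes. The mitochondrial carrier *Slc25a16* went the other way, with 6.26, 3.16 and 4.41 against 1.83, 2.25 and 2.59 (difference 2.39, standard error 0.87). The median level of the list was 4.03 to 5.02 in the 6 libraries. For all loci the median difference was -0.73 at a mean level of 3 to 4 and -0.20 from 4 to 5. At 10 of the 29 genes treated library 1 was at 0, and without that library the list median was -0.30. Medians without it were lower on the lists of PC calcium signalling (-0.48), PC synapse (-0.42), PC markers (-0.42) and ion channels (-0.32).

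Further members are named here for their role in energy metabolism, with their values known. *Idh3a* of the citric acid cycle was at 6.58, 4.96 and 6.85 against 6.90, 7.23 and 6.95. *Atp5g1*, a subunit of ATP synthase, was at 5.15, 4.78 and 4.49 against 5.26, 5.99 and 5.69. All treated values were lower at these genes, while *Mdh2* of the citric acid cycle differed by 0.05. *Coq8a*, a kinase-like protein of coenzyme Q synthesis, was at 5.52, 5.61 and 4.64 against 3.87, 3.76 and 4.47.

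Of 17 measured proteasome and protein folding genes none met the thresholds, and the median was -0.10. In all treated libraries 4 were lower (23.5%) and 3 higher (17.6%), against 7.18% and 4.58% of all loci and 12.2% and 6.37% of the named loci. *Hspa5*, the chaperone BiP of the endoplasmic reticulum, was at 4.53, 5.25 and 6.09 against 6.72, 6.88 and 6.56, a difference of -1.43 (standard error 0.62). *Ppia*, cyclophilin A, was at 4.46, 7.35 and 6.73 against 8.12, 7.88 and 7.93 (-1.80, standard error 0.85). *Psma3* and *Psmg4*, a subunit and an assembly factor of the proteasome, were lower by 2.14 and 2.00 with treated library 1 at 0. In contrast, *Psmd7*, *Psmc1* and *Bag6* were higher by 0.84, 0.48 and 0.42. For 8 measured stress and apoptosis genes the median was 0.25, and only *Hspa5* (12.5%), which is also on that list, separated the groups.

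Of 14 measured autophagy and lysosome genes, *Ctsz* alone (7.14%) separated the groups, and the list median was -0.03. *Map1lc3a*, which encodes the autophagosome protein LC3A, differed by -0.06, and the proton pump subunit *Atp6v1e1* by -0.18. Among 7 measured immediate early and circadian genes, 2 (28.6%), both repressors of the clock, were higher in all treated libraries. The share higher was 4.58% of all loci and 6.37% of the named loci. The list median was -0.09, and 4 of the 7 differences were below 0. *Cry2* was at 7.44, 6.45 and 6.89 against 6.16, 6.31 and 6.33 (difference 0.66, standard error 0.55), and *Nr1d1* at 6.06, 5.82 and 6.25 against 5.51, 5.19 and 5.63 (0.60, standard error 0.53). Neither difference was much larger than its limma standard error, which pools the spread over all loci tested. The SDs with and without rapamycin were 0.49 and 0.09 for *Cry2* and 0.22 and 0.23 for *Nr1d1*. The labels give no time of day.

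Genes that characterise PCs had a median level of 6.85 to 7.55 in the 6 libraries, against 4.44 to 4.51 over all loci tested. Between 0 and 2 of the 22 markers were at 0 in a library. None of those measured met the thresholds or had an unadjusted limma p below 0.05. Of 22 PC markers 21 were measured, and 5 (23.8%) were lower and 1 (4.76%) higher in all treated libraries. These shares were 7.18% and 4.58% of all loci and 12.2% and 6.37% of the named loci. The list median was -0.55, and -0.42 without treated library 1. Over all loci it was -0.06 both at a mean level of 6 to 7 and at 7 to 8. *Calb1*, the calcium-binding protein calbindin (chromosome 4, 15881264 to 15908064), was at 9.55, 9.61 and 10.32 against 10.65, 10.50 and 10.79, or 9.83 ± 0.43 and 10.65 ± 0.15 (SD, n = 3), a difference of -0.82 (standard error 0.55, limma adjusted p = 0.858). *Rgs8*, a regulator of G-protein signalling, was at 10.39, 10.21 and 10.45 against 10.91, 10.75 and 11.17, and *Gng13*, a G-protein gamma subunit, at 9.21, 9.62 and 9.07 against 9.82, 9.68 and 10.30. *Slc32a1*, the vesicular GABA transporter, was higher, with 6.10, 6.16 and 6.20 against 5.24, 5.90 and 5.51. *Pcp2*, whose promoter drives Cre in these mice, was at 8.99, 10.67 and 10.29 against 11.00, 10.46 and 10.99, and *Itpr1*, the main intracellular calcium release channel of PCs, differed by -0.11.

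The summed deposited value of the 22 PC markers was 10537, 10731 and 11738 in the treated libraries and 15101, 13305 and 15273 in the untreated ones, which did not overlap. As a share of each library's total, the groups overlapped, with 0.244%, 0.283% and 0.3901% against 0.362%, 0.370% and 0.430%, so the separation depended on the scaling. The 8 astroglial markers summed to 171, 91.0 and 179.6 with rapamycin and to 151.5, 231 and 145 without it, and *Bcan*, a matrix proteoglycan, was lower in all treated libraries (4.33, 0 and 3.86 against 4.78, 5.45 and 5.08). *Gfap*, the astroglial filament protein, overlapped at 5.33, 3.54 and 5.10 against 4.17, 5.51 and 4.57. Of 13 vascular markers only *Epas1* was measured, and the sums were 21.5 to 72.8 in the treated and 2.23 to 25.5 in the untreated libraries. The 5 oligodendrocyte markers summed to 38.0 to 51.7 and 50.2 to 66.8, and *Bin1*, which neurons also express, was lower by 0.62. The part of these shifts in the results for PC genes was not tested.

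Among 22 measured genes of PC calcium and metabotropic glutamate signalling, 5 were lower (22.7%) and 1 higher (4.55%) in all treated libraries. The shares were 7.18% and 4.58% of all loci and 12.2% and 6.37% of the named loci. The list median was -0.27, and -0.48 without treated library 1. It was -0.04 for all loci with a mean level of 8 to 9. *Atp2a3*, a calcium pump of the endoplasmic reticulum, was at 5.15, 5.58 and 6.80 against 7.48, 7.21 and 7.14, which was the largest difference among these 5 at -1.44 (standard error 0.64). *Gna11*, a G protein that couples receptors to phospholipase C, was higher at 7.39, 5.11 and 5.50 against 5.02, 4.96 and 4.85. The calcium signalling list shares *Calb1*, *Gng13* and *Rgs8* with the PC markers among its lower genes, so the counts of the lists are not separate.

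Of 22 measured synapse genes, 4 were lower (18.2%) and 1 higher (4.55%), against the same shares of all loci and of the named loci. Both subunits of the GABA-B receptor were among the lower ones. *Gabbr2* was at 4.11, 6.83 and 6.10 against 7.47, 7.25 and 7.58 (difference -1.75, standard error 0.81), and *Gabbr1* at 8.45, 8.81 and 8.61 against 9.35, 8.94 and 9.27 (-0.56, standard error 0.52). *Shisa6*, an auxiliary subunit of AMPA receptors, was at 5.77, 6.83 and 4.99 against 6.86, 6.85 and 7.04, so that treated library 2 was just below the untreated ones. Of 14 measured ion channel genes none was lower and 2 (14.3%) were higher in all treated libraries. The share higher was 4.58% of all loci and 6.37% of the named loci. The list median was -0.21, and 9 of the 14 differences were below 0. *Grin2b*, an NMDA receptor subunit (chromosome 6, 135713233 to 136173511), was at 5.49, 3.64 and 3.73 against 0.89, 3.46 and 0, and *Kcnd3*, a voltage-gated potassium channel, at 5.96, 5.32 and 5.56 against 4.36, 5.15 and 5.01. The differences were 2.84 (standard error 1.05) and 0.77 (0.56).

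Of the list members named above, *Rrbp1*, *Exosc9*, *Psmg4*, *Mccc1* and *Gcsh* reached the mean of 2 only without rapamycin, and *Grin2b* only with it, so a difference was a condition of testing these genes too.

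**Figure D4:**
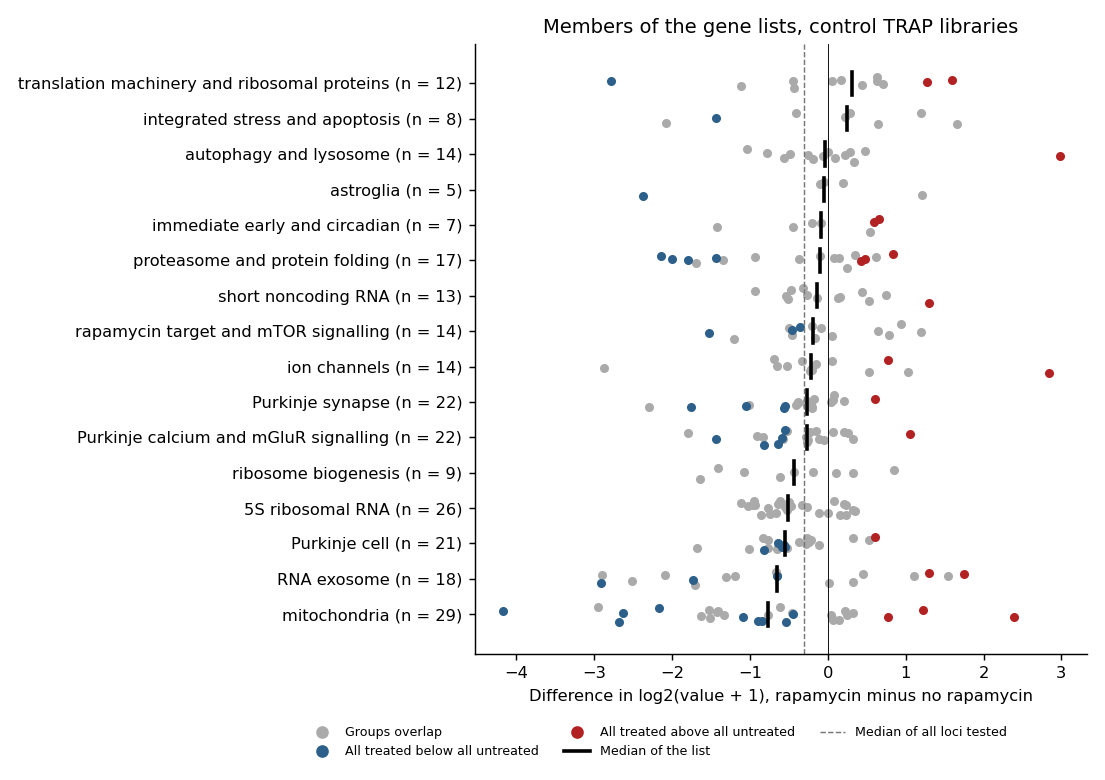
Difference in log2(value + 1), rapamycin minus no rapamycin, of each measured member (points, x axis) of the 16 gene lists with at least 5 measured members (y axis), coloured by whether the 3 treated and 3 untreated control libraries overlap. Black bars are list medians, from -0.76 for mitochondria to 0.31 for translation machinery, beside the dashed median of -0.31 for all loci. The median of all loci is below 0 at low levels and near 0 from a level of 5 upward.

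The same drug comparison in mutant PCs gave 169 of 9664 loci past the thresholds (1.75%), 123 of them lower, and a median log2 difference of -0.04. Adjusted limma p-values were below 0.05 for 0 loci, with 0.0819 as the smallest, and 803 loci were below 0.05 before adjustment. Limma-voom gave 4 loci below 0.05 after adjustment. The 2 comparisons share no libraries. Across the 8251 loci tested in both, their differences had a correlation of 0.13, given as a description. One locus was past the thresholds in both. Of the 105 named loci that were lower in all treated controls, 103 were tested in mutants, where 33 were lower and 11 higher in all treated libraries. Of all 955 named loci tested in mutants, 231 were lower in all treated libraries (24.2%) and 78 higher (8.17%), and the shares over all loci were 9.38% and 7.41%. Of the 55 higher ones, 54 were tested, and 5 were higher and 8 lower in mutants. *Fkbp1a* was among those lower in both genotypes, with differences of -0.45 in controls and -0.92 in mutants. *Calb1* differed by -0.26 in mutants, *Pabpc1* by 0.18 and *Npm1* by -0.44.

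The difference between genotypes in the effect of rapamycin was tested as an interaction over all 12 TRAP libraries. It was past the thresholds at 175 of 9174 loci (1.91%), and after adjustment 12 loci were below 0.05 in limma and 0 in limma-voom. Before adjustment, limma gave 552. *Pitrm1* and *Khdc3* were among the 12, with limma adjusted p = 0.034 and 0.0342. In mutants they differed by only -0.06 and -0.04. Because the 10 named loci were picked for their difference in controls, and the same control libraries enter the interaction, this is not separate evidence. Of the list members reported here, 7 besides *Pitrm1* had interactions past the thresholds, with limma adjusted p from 0.0886 to 0.457. They include *Atp2a3* (-1.44 in controls, 1.08 in mutants), *Hspa5* (-1.43 and 0.69), *Mccc1* (-2.63 and 0.94) and *Kcnd3* (0.77 and -1.34). The other 3 did not reach the filter in controls. *Rrp1b*, of ribosome biogenesis, had the lowest adjusted p of the 7. It was at 0 in all treated controls, against 3.25, 2.86 and 3.04 in the untreated ones, and differed by 0.41 in mutants. The calcium channel gene *Orai2* was also at 0 in all treated controls, against 1.43, 2.05 and 4.36, and differed by 0.83 in mutants. The apoptosis gene *Bcl2l11* was at 0, 4.58 and 3.44 against 1.43, 1.17 and 0 in controls, and differed by -4.68 in mutants.

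**Figure D5:**
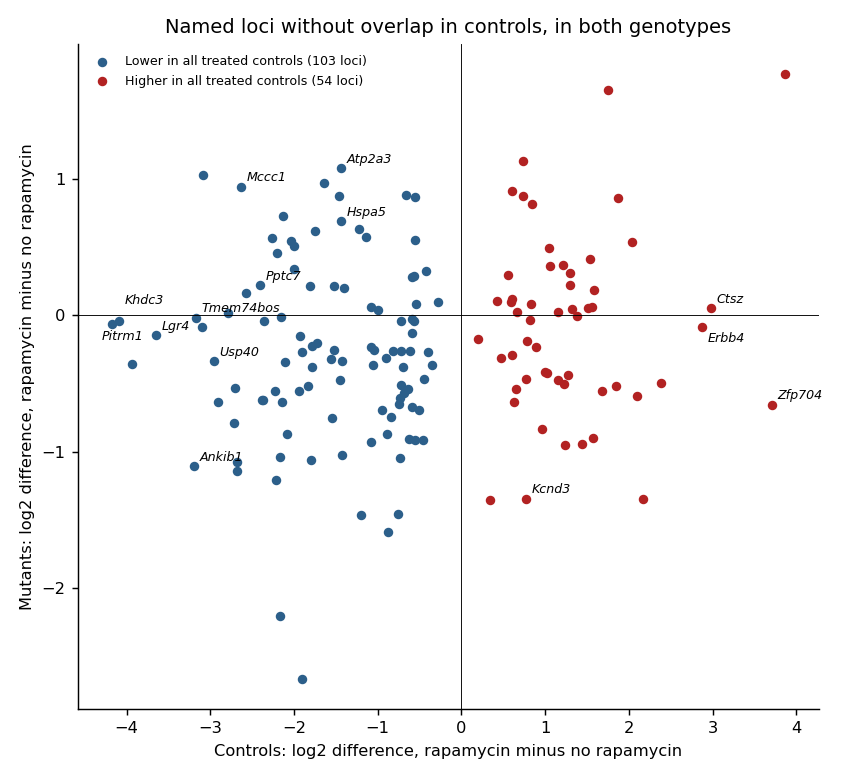
Log2 difference between rapamycin and no rapamycin in controls (x axis) and in mutants (y axis) for the named loci whose control groups did not overlap and that were tested in both genotypes, 103 lower (blue) and 54 higher (red) in all treated controls. *Pitrm1*, *Khdc3* and *Lgr4*, with control differences of -4.17, -4.09 and -3.65, lie near 0 in mutants at -0.06, -0.04 and -0.15.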

How the data were processed

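One library per animal was made from TRAP RNA and sequenced as paired-end reads. Per the labels and the study's methods, the authors trimmed reads with Trimmomatic 0.39, mapped them to GRCm38 with STAR 2.7.0f, and quantified them with Cufflinks 2.2.1 on the transcriptome assembled from sorted PCs. The values the authors deposited are a signal, estimated fragments divided by one size factor per library, and 91.1% to 96.3% of low values in 5 of the 6 control libraries, and 88.7% in the sixth, are whole multiples of one step within 0.02. Depth was estimated by dividing by that step, the commonest low positive value of each library. Intervals from counting were not computed, and a locus at 0 has an unknown limit. The table of sorted PCs was not used here.

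Values were transformed to log2(value + 1), loci with a mean of 2 or more over the libraries compared were kept, and limma 3.58.1 (lmFit and eBayes, R 4.3.3) compared treated with untreated libraries without covariates. The thresholds were p under 0.01 and a fold change above 2, with Benjamini-Hochberg adjusted p beside them. Fold changes on this scale understate the change of low loci. The supplementary files pair 1831 of 1985 loci with a symbol, and only those symbols were taken from them. Coordinates and transcript starts are from GENCODE for GRCm38, and microRNAs from RefSeq. The text names the loci past the thresholds without overlap (at most 12 in each direction), all measured members of the mTOR and translation lists except 1 that is not reported here, and up to 4 members of each other list. Any further gene was picked with its values known. The members and lists were chosen with earlier results of these data known. The limma standard errors and p-values draw on the spread between these animals, pooled for each locus with that of all loci tested. For *Rgs8* the SDs were 0.12 with and 0.21 without rapamycin (n = 3), and the standard error was 0.52. Such a standard error reflects the pooled spread more than that of the locus. The code was tested on simulated data, and figures were drawn with matplotlib 3.10.9.

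The fits were repeated with 4 other scalings, with pseudocounts of 10 and 0.1, without the filter or with a mean of 5, with an intensity trend or a replicate term, with the 4 TRAP groups fitted jointly, and without each library in turn. Limma-voom was added after the data were seen.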

Additional observations from a re-analysis of the deposited data

Results flagged for a closer look

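The limma interaction of rapamycin and genotype met an unadjusted p under 0.01 and a fold above 2 at 14 of the loci the text names. Over all loci, 175 of 9174 (1.91%) met them. Of the 14, only *Pitrm1* and *Khdc3* were below 0.05 after adjustment in limma, and 0 loci were in limma-voom. Values are the log2 difference in mutants minus that in controls. For *Pitrm1* it was 4.11 and for *Khdc3* 4.05, and since both were listed at 0 in all treated controls these values depend on the pseudocount. It was 3.50 for *Lgr4*, 3.15 for *Tmem74bos* and 2.62 for *Pptc7*, which fell in controls (limma adjusted p = 0.385, 0.428 and 0.319). For the loci that rose in controls it was -4.36 for *Zfp704* and -2.96 for *Erbb4* (limma adjusted p = 0.368 for each). Among the list members it was 3.57 for *Mccc1*, 2.52 for *Atp2a3*, 2.12 for *Hspa5* and -2.12 for *Kcnd3*. It was 3.46 for *Rrp1b*, 3.44 for *Orai2* and -6.49 for *Bcl2l11*, which were picked with their interaction known. *Rrp1b* and *Orai2* were also at 0 in all treated controls, so their values depend on the pseudocount too. The first 11 loci were picked for their differences in controls, and the same libraries enter the interaction.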

How the results depend on the processing

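The count of loci past the thresholds in controls (91) was 39 with a pseudocount of 0.1, 471 without the filter, 12 with a mean of 5 or more, 53 with an intensity trend and 292 when the 4 TRAP groups were fitted jointly, and 29 to 434 with 1 library left out. The share that was lower (81.3%) was 68.7% after quantile normalization, 91.9% without the filter, 41.7% with a mean of 5 or more, 69.8% with an intensity trend and 66.2% by limma-voom, a setting chosen after seeing the data, and 35.5% to 93.6% with 1 library left out. The median difference (-0.31) was -0.10 and -0.45 with pseudocounts of 10 and 0.1 and -0.052 with a mean of 5 or more, and -0.34 to -0.17 with 1 library left out. With a mean of 5 or more, 50 named loci were lower and 24 higher in all treated libraries. With 1 library left out the counts were 117 to 195 and 71 to 126. The counts under the pseudocounts, the trend and one shared fit are of the same libraries, and the cause of their changes was not tested.

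In mutants, 169 became 267 with equal totals without the 10 highest loci, 450 without the filter, 95 with a mean of 5 or more, 59 in the joint fit, 59 by limma-voom and 72 to 221 with 1 library left out. The interaction, 175, became 31 with equal totals, 73 with equal totals without the 10 highest loci, 95 with a pseudocount of 10, 392 without the filter, 20 with a mean of 5 or more, 101 with an intensity trend, 20 by limma-voom and 121 to 529 with 1 library left out.

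Libraries of the same replicate number come from different animals, and their deviations from the group means had correlations of -0.08 to -0.01 in controls and -0.05 to -0.03 in mutants, so the number does not pair them. With the replicate block, 71 loci were past the thresholds in controls, 100 in mutants and 159 in the interaction. In every same-numbered pair, 157 named loci were lower and 88 higher. This is a looser condition than groups that do not overlap, so these counts do not compare directly with 105 and 55. Of the 62 named loci, 52 kept their direction in every alternative in which they were tested, which the filter itself fixes for loci that reach it in 1 group only. The other 10, *Larp1*, *Prkab2*, *Prkag2*, *Pik3cb*, *Grb14*, *Ppp2ca*, *Rplp0*, *Rpl5*, *Eef1a2* and *Paip2b*, met the thresholds in none. Over all 62 loci and alternatives, 67 calls were lost and 19 gained. Depth limits loci near 0, where 1 fragment is worth 0.557 to 0.958 on the deposited scale.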
